A study of Mus musculus with 10 samples.

Results

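The nuclear-encoded subunits of the mitochondrial respiratory chain and ATP synthase were followed across 10 RNA sequencing libraries of mouse embryonic fibroblasts. Members were chosen by gene symbol: Ndufa, Ndufb, Ndufc, Ndufs or Ndufv with a number, Sdha to Sdhd, symbols starting with Uqcr or Atp5, and the Cox4 to Cox8 subunits, without pseudogenes or clone names. Of the 23337 gene symbols, 84 matched, 1 complex I symbol was left out by the rule, and 83 were members. Complex I held 36 of them, complex II 4, complex III 8, complex IV 18 and ATP synthase 17. The symbols place Atp5sl with ATP synthase, but GENCODE names it Dmac2, a complex I assembly protein, and its level of 54.6 normalised reads per kb is counted with ATP synthase below. A low-count filter passed 75 members among 12313 tested genes.

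The cells were immortalised fibroblasts labelled Slfn2 WT or Slfn2 KO, and kept either without treatment or with mouse IFN-β, the antiviral cytokine interferon-β, at 5000 IU/ml over 6 h. There were 3 WT-labelled libraries untreated and 3 with IFN-β, and 2 KO-labelled libraries in each treatment. Per the labels, replicates were plated from 1 WT and 1 KO culture, so p-values measure the spread between these libraries and a genotype difference cannot be told apart from a difference between the cultures. How the knockout was made is not given in the sources used here.

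These complexes sit in the inner mitochondrial membrane. Complexes I and II pass electrons from NADH and succinate to ubiquinone, complex III passes them to cytochrome c, and complex IV passes them to oxygen. Complexes I, III and IV pump protons, and ATP synthase makes ATP from the returning proton flow. Except in complex II, nuclear-encoded subunits are assembled with a few subunits made from mitochondrial DNA.

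The libraries held 13565815 to 16329729 recovered reads each, and a floor of 3 reads equals 2.73 to 3.29 normalised reads. Isg15, an interferon-induced ubiquitin-like protein, was read at 45.1 to 219.8 normalised reads in the 5 untreated libraries and at 5411 to 8141 in the 5 treated ones. Slfn2 went against its label untreated: it was read at 15.5 to 18.7 in WT-labelled libraries and at 34.9 and 46.1 in the libraries labelled KO. With IFN-β it was read at 449 to 573 in WT-labelled and at 75.0 and 171 in KO-labelled libraries, so the groups are called by their labels throughout. Collagen genes and Vim, markers of fibroblasts, were high in every library, while Fap ran from 3.10 to 9.27 and Postn from 48.1 to 4375. The summed fibroblast list of 10 genes ran from 205513 to 308974 in untreated WT-labelled and from 303238 to 469655 in untreated KO-labelled libraries. By mean, Vim, Pdgfra and Pdgfrb were higher in untreated WT-labelled than in untreated KO-labelled libraries, and the other genes of the list were lower. Summed neural markers (5 genes) were 3362 to 4337 against 1664 to 1770.4. Nes (mean 2724 against 645) and Tubb3 (967 against 509) were higher in untreated WT-labelled than in untreated KO-labelled libraries. Mtap2 (51.6 against 370) and Syp (8.15 against 13.9) were lower. Sox2 was at 0 in WT-labelled libraries and at a mean of 179 in untreated KO-labelled ones. The macrophage list (6 genes) summed to 293 to 418 against 159 to 204, mostly Cd14, with the defining gene Emr1 at 0 in every library. The part of these differences in the results below was not tested.

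Transcript levels were compared between genes per kilobase of a reference transcript. ATP synthase genes led. Atp5b, the catalytic β subunit of the F1 head, reached 13483 normalised reads per kb over the 10 libraries, Atp5g3, which encodes the membrane c ring, 7037, and Atp5a1, the α subunit of the head, 6833. Cox4i1, the ubiquitous isoform of a core regulatory subunit of complex IV, followed at 6636, then Uqcrq of complex III at 5788 and Ndufa4 at 5606. Ndufa4 is named after complex I, but its product is now placed in complex IV.

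Median levels per kb were 2329 for ATP synthase, 1954 for complex III, 1421 for complex II, 1209 for complex I and 904 for complex IV, where several tissue-restricted isoforms lower the median. Among the tested members the highest level was 818 times the lowest. Within complex I, the flavoprotein core gene Ndufv1 was at 1488 per kb and the iron-sulphur core gene Ndufs1 at 708. Sdha and Sdhb, the catalytic pair of complex II, were at 1365 and 1477, and Uqcrfs1 and Uqcrc1, the Rieske protein and a core protein of complex III, at 1472 and 1922. Cox5a, a structural subunit of complex IV, was at 3473.

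**Figure D1:**
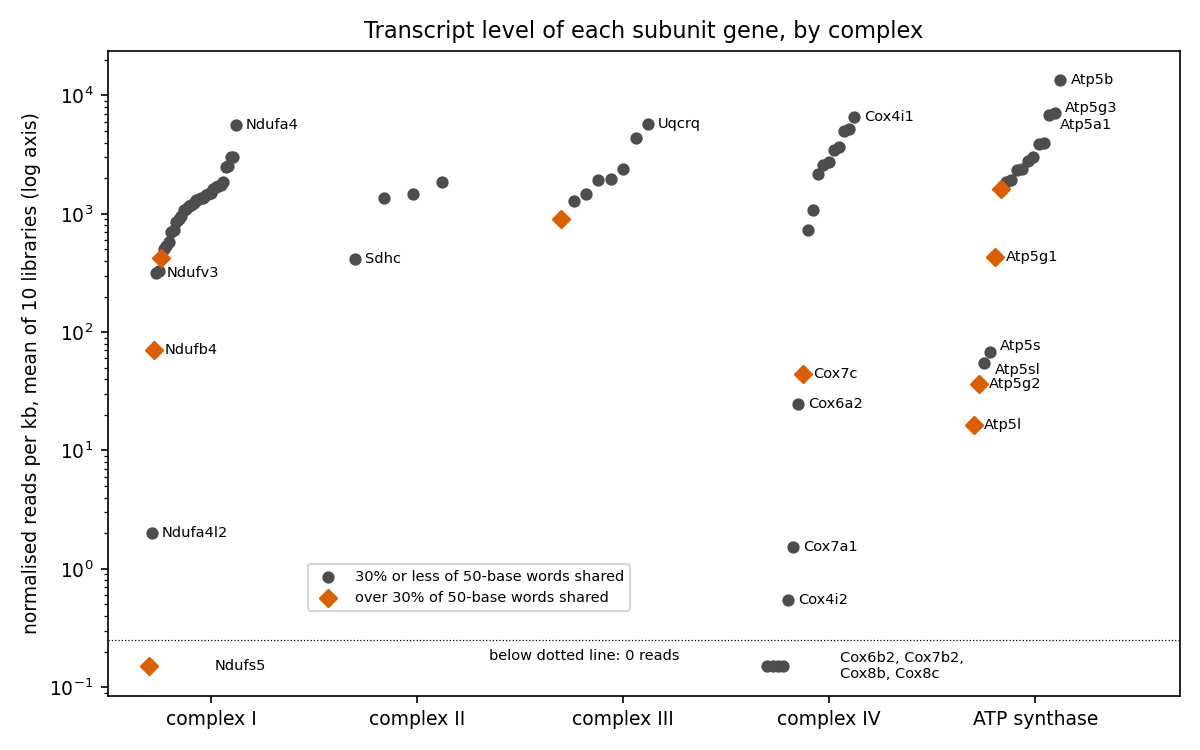
Each point is 1 of the 83 subunit genes, placed by complex (horizontal axis) and by normalised reads per kb, mean of 10 libraries (vertical log axis); points under the dotted line had 0 reads. Orange diamonds share over 30% of their 50-base words with another gene; 5 of these 9 genes lie under 100 per kb, and Atp5b is highest at 13483.

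Isoforms of complex IV that are known from muscle, testis or lung were at or near 0 reads in these fibroblasts. Cox6b2, Cox7b2 and Cox8c, known as testis forms, and Cox8b, a muscle form, had 0 reads in every library, which allows up to 3 reads per library. Cox4i2, the lung and hypoxia form, had 4 reads in all against 49382 for Cox4i1, or 0.0081% of the pair (exact 95% interval 0.00221 to 0.0207%, counting error only). Cox7a1, the muscle form, had 6 reads against 16884 for Cox7a2, or 0.0355% (exact interval 0.0130 to 0.0773%). Cox6a2, another muscle form, was read in every library at 4.13 to 26.1 normalised reads, and per kb Cox6a1 was 210.1 times higher, from 131 to 795 times in single libraries. Ndufa4l2, known as a hypoxia-induced relative of Ndufa4, had 19 reads in all. Markers of muscle were near 0 (Actn2, Myog and Myod1 at 0 in every library). In each of these pairs the common isoform held nearly all of the reads.

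The c ring of ATP synthase is encoded by Atp5g1, Atp5g2 and Atp5g3, whose mature proteins are the same. Atp5g3 was 16.3 times Atp5g1 per kb, from 13.1 to 19.7 times over the 10 libraries. Atp5g2 was read at only 11.6 to 20.7 normalised reads, and Atp5g3 was 194 times higher per kb. Other annotated genes hold 66.0% of the 50-base words of Atp5g1 and 100% of those of Atp5g2, against 0% for Atp5g3. Both ratios are therefore uncertain.

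Atp5g2 was 1 of 5 members that had few or no reads and also share much of their sequence with other annotated genes. All 50-base words of its reference transcript occur in another annotated gene, against 68.5% for Atp5l (the g subunit of ATP synthase), 53.0% for Cox7c (complex IV), 37.0% for Ndufb4 (complex I) and 41.2% for Ndufs5 (complex I). Ndufs5 had 0 reads in every library. Atp5l was at 4.13 to 15.8 normalised reads, Cox7c at 16.4 to 33.9 and Ndufb4 at 50.9 to 97.7. The genes lie at chr15:102662864-102672352 (Atp5g2), chr9:44912557-44920742 (Atp5l), chr13:86044816-86046904 (Cox7c), chr16:37647170-37654453 (Ndufb4) and chr4:123712710-123718202 (Ndufs5), all on the minus strand of GRCm38. The closest copy is annotated as a processed pseudogene in 4 cases and, for Cox7c, as a transcribed processed pseudogene, and the first 60 coding bases show how close the copies are. Each gene (GENCODE M21, sense strand) stands above its closest copy, and a capital letter marks a base that differs from the gene.
Ndufs5: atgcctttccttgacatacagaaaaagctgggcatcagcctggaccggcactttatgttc
BC002163 (chromosome 16): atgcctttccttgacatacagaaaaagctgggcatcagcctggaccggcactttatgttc
Ndufb4: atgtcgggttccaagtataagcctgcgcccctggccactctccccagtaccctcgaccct
Ndufb4c (chromosome 15): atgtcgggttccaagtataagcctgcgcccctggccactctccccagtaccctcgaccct
Cox7c: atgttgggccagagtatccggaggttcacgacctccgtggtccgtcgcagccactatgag
Gm10012 (chromosome 17): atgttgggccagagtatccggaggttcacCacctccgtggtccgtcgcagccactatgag
Atp5l: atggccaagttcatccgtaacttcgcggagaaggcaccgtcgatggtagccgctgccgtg
Gm10221 (chromosome 5): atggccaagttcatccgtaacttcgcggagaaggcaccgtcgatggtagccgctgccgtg
Atp5g2: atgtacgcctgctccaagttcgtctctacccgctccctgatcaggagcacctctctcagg
Gm10231 (chromosome 17): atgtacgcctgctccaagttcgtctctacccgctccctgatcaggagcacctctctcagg

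In 4 of the 5 pairs the 60 bases were the same, and the Cox7c pair differed at 1 base. Shared sequence did not go with low reads in every member. Of the 9 members that share over 30% of their words, 5 were under 100 per kb, while Atp5h (50.5% shared) was at 1630.0 per kb, Uqcrb (43.2%) at 911, Atp5g1 (66.0%) at 432 and Ndufs3 (35.8%) at 420.1. Of the 15 members under 100 per kb, 10 share no such word, and these include the isoforms above. How reads with more than one match were counted is not given in the sources used here, so the levels of members with copies are uncertain. The part of shared sequence in the low values was not tested.

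IFN-β moved no subunit past the test in either labelled genotype. By limma (Benjamini-Hochberg adjusted p under 0.05), 0 of 75 members passed in WT-labelled cells, where 2.21% of all tested genes did, all of them higher. In KO-labelled cells 0 of 75 passed, where 1.84% of all tested genes did (1.83% higher and 0.0162% lower). No member had an unadjusted p under 0.05 in either comparison, and edgeR and DESeq2 on the recovered reads also called 0. With the replicate number as a block, 0 members passed again, 2 and 1 had an unadjusted p under 0.05, and 4.95% and 3.48% of all tested genes passed (4.68% higher and 0.268% lower in WT-labelled, 3.37% and 0.114% in KO-labelled cells). Without the block, the 95% intervals of 71 and 72 of the 75 members lay within a log2 difference of 1 either way. Those of 32 and 31 lay within 0.5, and the other intervals reached a shift of 0.5 or more. The smallest half-widths were 0.25 and 0.30. A shift of that size need not pass the adjusted test, so small shifts could be missed in any member. With the block, 59 and 62 of the 75 intervals lay within 0.5, and the smallest half-widths were 0.17 and 0.20. Ndufa13, a complex I subunit first described as a cell-death gene induced by interferon with retinoic acid, was at 1409, 2302 and 1467 normalised reads in untreated WT-labelled libraries and at 1545, 1609 and 1459.8 with IFN-β. The treated values fell inside the range of the untreated ones.

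The log2 differences were mostly below 0 in WT-labelled cells (70 of 75 members, median -0.15, against -0.03 for all tested genes) and in KO-labelled cells (64 of 75, median -0.05, against -0.03). In KO-labelled cells, 13 members were lower in both treated than in both untreated libraries and 0 were higher, where 9.67% and 10.7% of all tested genes were. In WT-labelled cells 3 members (Ndufa1, Ndufa11 and Atp5c1) were lower in all treated libraries and 0 were higher, against 4.11% and 7.48% of all tested genes. The WT-labelled median was also -0.15 for the mitochondrial ribosome, -0.13 for the cytosolic ribosome and -0.12 for the proteasome, and it was -0.03 for regulators of mitochondrial biogenesis.

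The WT-labelled median rested on 1 library. In untreated WT-labelled library 2, members lay a median log2 offset of 0.26 above their 10-library mean, and the other 9 libraries lay between -0.11 and 0.11. In that library 57 of 75 members were above both other untreated WT-labelled libraries, against 38.0% of all tested genes. Such a count was not particular to it: in treated WT-labelled library 3, 58 of 75 were above both others, against 30.8%. In treated WT-labelled library 2, the other library of its number, 38 of 75 members were below both others, against 28.7% of all tested genes. In untreated WT-labelled library 1, 59 of 75 members were below both others, against 36.3% of all tested genes. Within pairs of the same replicate number, the median IFN-β difference in WT-labelled cells was -0.03 for number 1, -0.38 for number 2 and -0.02 for number 3. In KO-labelled cells it was -0.03 and -0.11. Without untreated WT-labelled library 2 the WT-labelled median was -0.05, and -0.03 with the block, at the level of all genes.

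**Figure D2:**
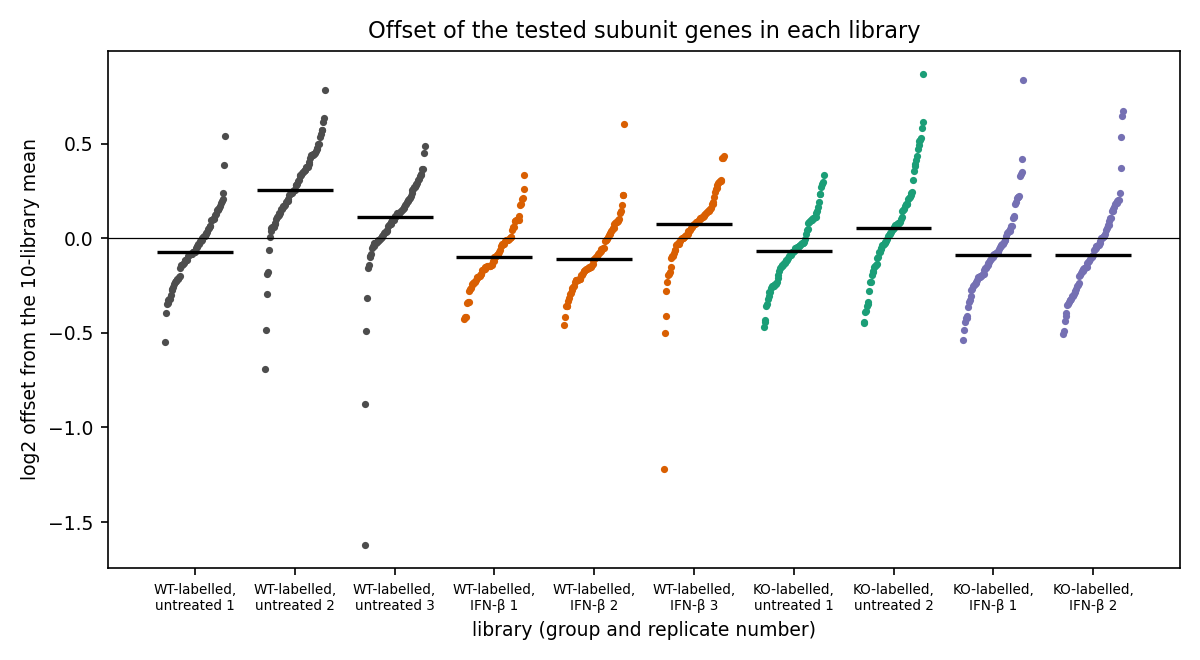
Each point is 1 of 75 tested subunit genes in 1 library (horizontal axis, group and replicate number), drawn by its log2 offset from the mean of the 10 libraries; black bars are medians. The bar of untreated WT-labelled library 2 is at 0.26, the highest of the 10.

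**Figure D3:**
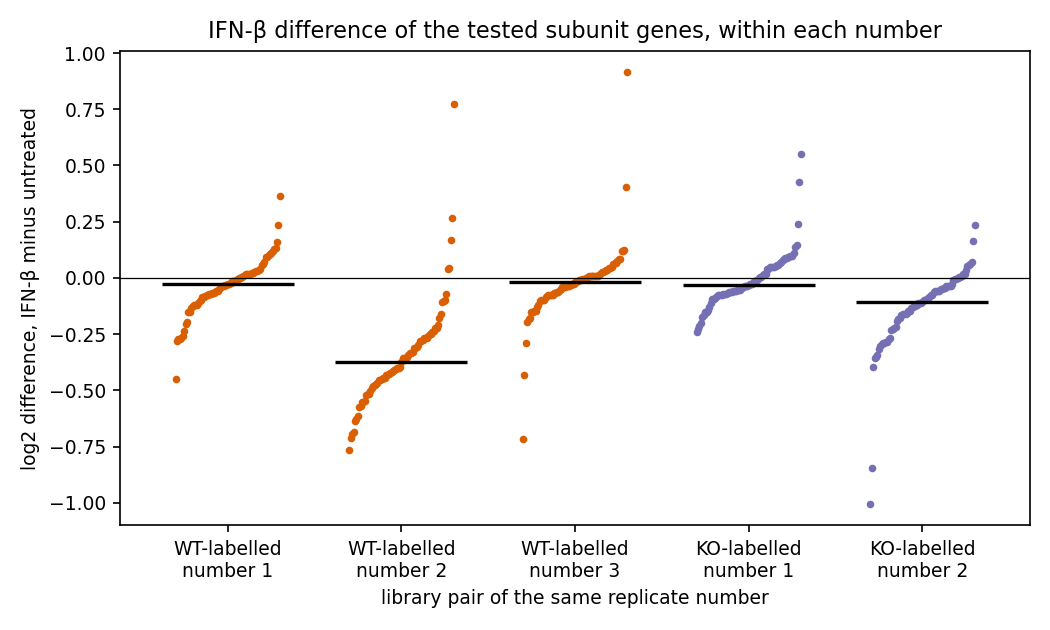
Log2 difference between the IFN-β and the untreated library of the same replicate number (vertical axis) for 75 subunit genes in 5 library pairs (horizontal axis); black bars are medians. The WT-labelled pair of number 2 has its median at -0.38, and the other pairs lie between -0.11 and -0.02.

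Across genes, deviations from the group mean in that library went along with base composition, in the members and in all tested genes alike. Over the 75 members, whose transcripts had a median GC content of 51.7% (38.99 to 61.1%), Spearman's rho between GC content and the deviation from the group mean was 0.52 in untreated WT-labelled library 2. Over 10752 tested genes with a value it was 0.51, with a median GC content of 50.5%. In untreated WT-labelled libraries 1 and 3 it was -0.38 and -0.37 over the members, where deviations within a group sum to 0. In the treated WT-labelled and all KO-labelled libraries it lay between -0.14 and 0.11 over the members. Over the 10752 genes it was also above 0 in the other number 2 libraries: 0.16 in treated WT-labelled, 0.19 in untreated and 0.15 in treated KO-labelled cells. It lay between -0.32 and -0.02 in the libraries of numbers 1 and 3. Within each KO-labelled group the values of the libraries mirror each other. The correlations are across genes of 1 library and describe that library. Their part in the median offset of the members was not tested.

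No difference in the IFN-β response between the labelled genotypes was detected for any member. By limma, 0 of 75 members and 0% of all tested genes passed the interaction test, 0 members had an unadjusted p under 0.05, and edgeR and DESeq2 called 0. The median half-width of the 95% interval was 0.57 on the log2 scale, and 66 of 75 intervals lay within 1 either way. The median difference was 0.09, and with the block it was -0.02 without untreated WT-labelled library 2.

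Between the cultures, Uqcrc2 passed the limma test with no block. It encodes a core protein of complex III and lies at chr7:120635176-120659524 (GRCm38, plus strand). It was read at 2605, 2564 and 2972 normalised reads in untreated WT-labelled libraries and at 1910.2 and 1831 in untreated KO-labelled ones. With IFN-β the values were 2707, 2637 and 3231 against 1978 and 1905. Every KO-labelled library was below every WT-labelled one. The log2 difference was -0.55 ± 0.14 (SE) with IFN-β (limma adjusted p = 0.0496, n = 3 and 2) and -0.53 untreated (adjusted p = 0.0566). Leaving out KO-labelled IFN-β library 2 took the adjusted p with IFN-β to 0.241, the highest of the alternatives, and edgeR gave 0.0542. In all, 0 of 75 members passed untreated and 1 with IFN-β, where 6.23% and 6.55% of all tested genes did (3% higher and 3.23% lower untreated, 2.92% and 3.64% with IFN-β). At an unadjusted p under 0.05 there were 12 and 13 members. Pdzd9 on the other strand overlaps 26.6% of its exons, and whether counting used strand is not given in the sources used here.

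With the replicate number as a block, 3 members were higher and 13 lower in KO-labelled cells untreated, and 5 were higher and 9 lower with IFN-β. The same fit called 26.6% and 26% of all tested genes (13.5% higher and 13.1% lower untreated, 12.7% and 13.3% with IFN-β). Untreated, 4% of the members were higher, below the background, and 17.3% were lower, above it. With IFN-β 6.67% were higher and 12% lower, both below the background. By edgeR with the block 15 and 14 members passed (27.2% and 26.7% of all tested genes), by DESeq2 without it 9 and 6 (12.3% and 12.2%), and by edgeR without it 0 and 0 (5.77% and 6.07%). The blocked counts depended on single libraries: untreated, 1 member passed without untreated KO-labelled library 2 and 18 without untreated WT-labelled library 2, and with IFN-β 1 passed without treated KO-labelled library 1 and 23 without untreated WT-labelled library 2. Both treatments shared 3 of the higher members (Ndufa13, Ndufa5 and Ndufc1) and 8 of the lower ones, which included Ndufs4, Ndufc2, Uqcrc2, Cox6b1, Cox7b, Atp5a1 and Atp5g3. The 2 comparisons use different libraries of the same 2 cultures. By position of the raw groups, 9 members were higher and 20 lower in all untreated KO-labelled libraries (all tested genes 15.7% and 15.9%), and 12 and 19 with IFN-β (20% and 20.4%).

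**Figure D4:**
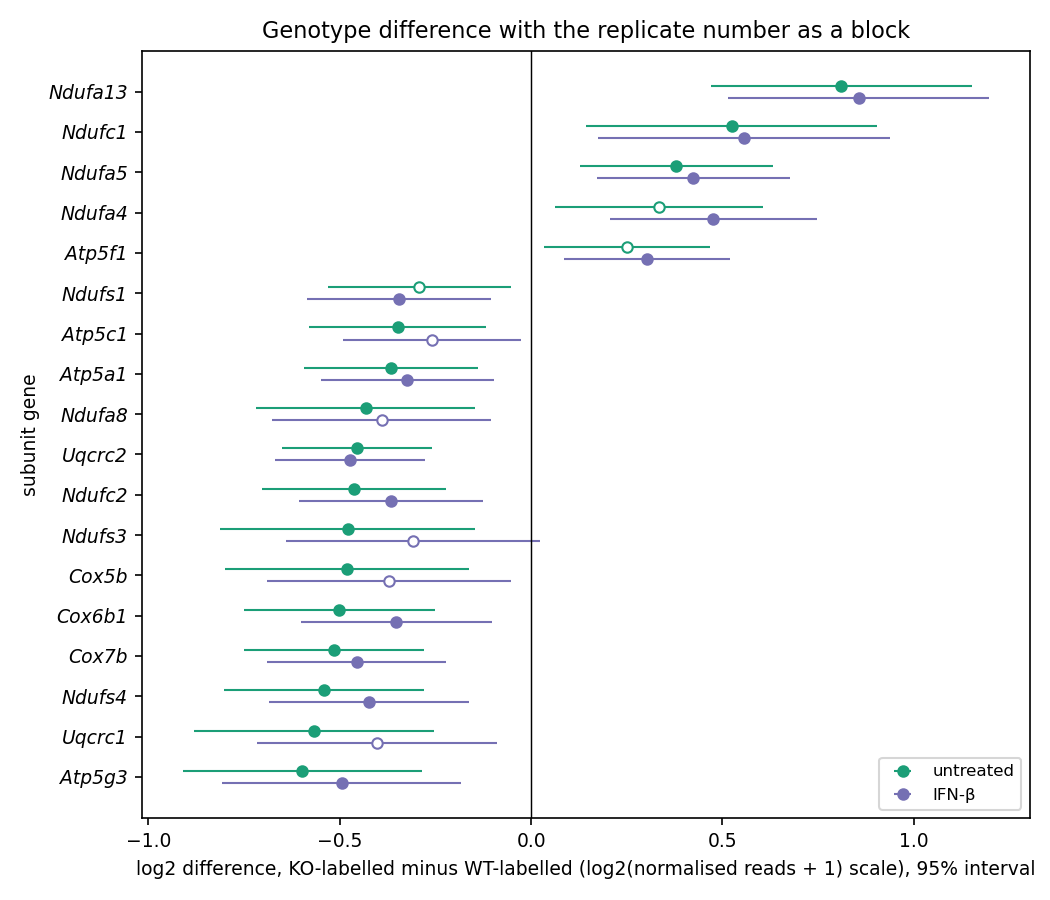
KO-labelled minus WT-labelled difference on the log2(normalised reads + 1) scale (horizontal axis) with its 95% interval, from limma with the replicate block, for subunit genes (vertical axis) called in at least 1 treatment; filled points passed at an adjusted p under 0.05. Ndufa13 lies farthest to the right at 0.81 untreated and 0.86 with IFN-β, and Atp5g3 farthest to the left untreated at -0.60.

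In complex I the called members went both ways. Ndufa13, at chr8:69894180-69902558 on the minus strand, was read at 2540.3 and 3765 normalised reads in untreated KO-labelled libraries and at 2631 and 3234 with IFN-β, above every WT-labelled library (1409 to 2302). The blocked difference was 0.81 ± 0.15 (SE) untreated and 0.86 ± 0.15 with IFN-β (limma adjusted p = 0.00598 and 0.00478), which is 1.75-fold and 1.81-fold. Without the block the adjusted p was 0.0701 and 0.0602. Tssk6 on the other strand overlaps 30% of its exons.

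Ndufa5, an accessory subunit of the matrix arm, was read at 669.8, 849 and 755 in untreated WT-labelled and at 879 and 1084 in KO-labelled libraries. With IFN-β it was at 616, 674 and 667 against 843 and 898, so the groups did not overlap in either treatment. Its blocked difference was 0.38 ± 0.11 and 0.42 ± 0.11 (limma adjusted p = 0.0354 and 0.0241). Ndufc1, a small membrane-arm subunit, differed by 0.52 ± 0.17 and 0.56 ± 0.17 (limma adjusted p = 0.0493 and 0.0406). Its transcript shares 5.25% of its 50-base words, with 134 other genes in all. Ndufa4, grouped with complex I by its symbol only, passed with IFN-β at 0.48 ± 0.12 (limma adjusted p = 0.0205).

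The lower members of complex I included the core subunits Ndufs1 and Ndufs3. Ndufs4, an accessory subunit whose loss causes Leigh-like disease in mice, was read at 993, 1042 and 1118 in untreated WT-labelled and at 744 and 648 in KO-labelled libraries, and with IFN-β at 943, 969 and 1089 against 775 and 663. No KO-labelled value reached the WT-labelled range. Its blocked difference was -0.54 ± 0.11 untreated and -0.42 ± 0.11 with IFN-β (limma adjusted p = 0.0108 and 0.0282), and without the block the untreated adjusted p was 0.0501. Ndufc2, which sits in the membrane arm, differed by -0.46 and -0.37 (adjusted p = 0.0143 and 0.0355). Ndufs3 and Ndufa8 passed only untreated, at -0.48 and -0.43, and Ndufs1 only with IFN-β, at -0.35. Whether these differ between treatments is covered by the interaction test above. The flavoprotein core gene Ndufv1 did not pass: it was at 2121, 3540.0 and 2475 against 2212 and 2563 untreated.

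No complex II member passed. Sdha was read at 3416, 4411 and 4303 in untreated WT-labelled and at 3272 and 4457 in KO-labelled libraries, with the same order by number in both. Sdhb was at 1572, 2118 and 1758 against 1675 and 1644.

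In complex III, both core proteins were called lower. Uqcrc1 was at 3036, 4806 and 3780.2 in untreated WT-labelled and at 2278 and 2744 in KO-labelled libraries. Its blocked difference was -0.57 ± 0.14 untreated (limma adjusted p = 0.0182), and it did not pass with IFN-β. Uqcrc2 differed by -0.45 ± 0.09 and -0.47 ± 0.09 with the block (adjusted p = 0.00658 and 0.00571). The Rieske protein gene Uqcrfs1 did not pass, at 1979.7, 2301 and 2233 against 2148 and 1763.

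In complex IV as grouped by symbol, 3 members were called lower untreated and 2 with IFN-β, and 0 were higher. Ndufa4, whose product is now placed in complex IV, was counted with complex I and called higher with IFN-β. Cox7b, a small subunit encoded at chrX:106015700-106022450, was read at 2753, 2186 and 2944 in untreated WT-labelled and at 1723 and 1662 in KO-labelled libraries, and with IFN-β at 2281, 2028 and 2817 against 1633 and 1550.1. Its blocked difference was -0.51 ± 0.10 and -0.46 ± 0.10 (limma adjusted p = 0.00838 and 0.0139). Cox6b1, which bridges complex IV dimers, was at 1838, 2139.9 and 2128 against 1336 and 1406 untreated and differed by -0.50 ± 0.11 and -0.35 ± 0.11 (adjusted p = 0.0122 and 0.0460). Cox5b, a zinc-binding matrix subunit, passed untreated at -0.48. Cox4i1 was at 4769.8, 6017 and 5261 against 4849 and 4906, and Cox5a at 2014, 2748 and 2553 against 2384 and 1732, so the groups of both overlapped.

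In ATP synthase, 3 members were called lower untreated, and 2 lower and 1 higher with IFN-β. Atp5a1 was read at 15781, 22323 and 19809.6 in untreated WT-labelled and at 12976 and 15816 in KO-labelled libraries. Its blocked difference was -0.37 ± 0.10 and -0.32 ± 0.10 (limma adjusted p = 0.0278 and 0.0438). Its partner in the head, Atp5b, did not pass, at 22129.6, 28142 and 25353 against 27284 and 29111. Its blocked interval ran from -0.04 to 0.45 untreated. With IFN-β it was at 21742, 23146 and 25893 against 26313 and 29212, so both KO-labelled libraries lay above every WT-labelled one, with a blocked difference of 0.27 ± 0.11 (limma adjusted p = 0.0905) that did not pass. Atp5g3 was at 5588, 6705 and 5978 against 4434 and 3604 untreated, and at 5689, 4989.8 and 5573 against 4221 and 3464 with IFN-β, with no overlap. It differed by -0.60 ± 0.14 and -0.49 ± 0.14 (adjusted p = 0.0146 and 0.0304). The γ subunit gene Atp5c1 passed untreated at -0.35, and Atp5f1, a subunit of the peripheral stalk, passed with IFN-β at 0.30.

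**Figure D5:**
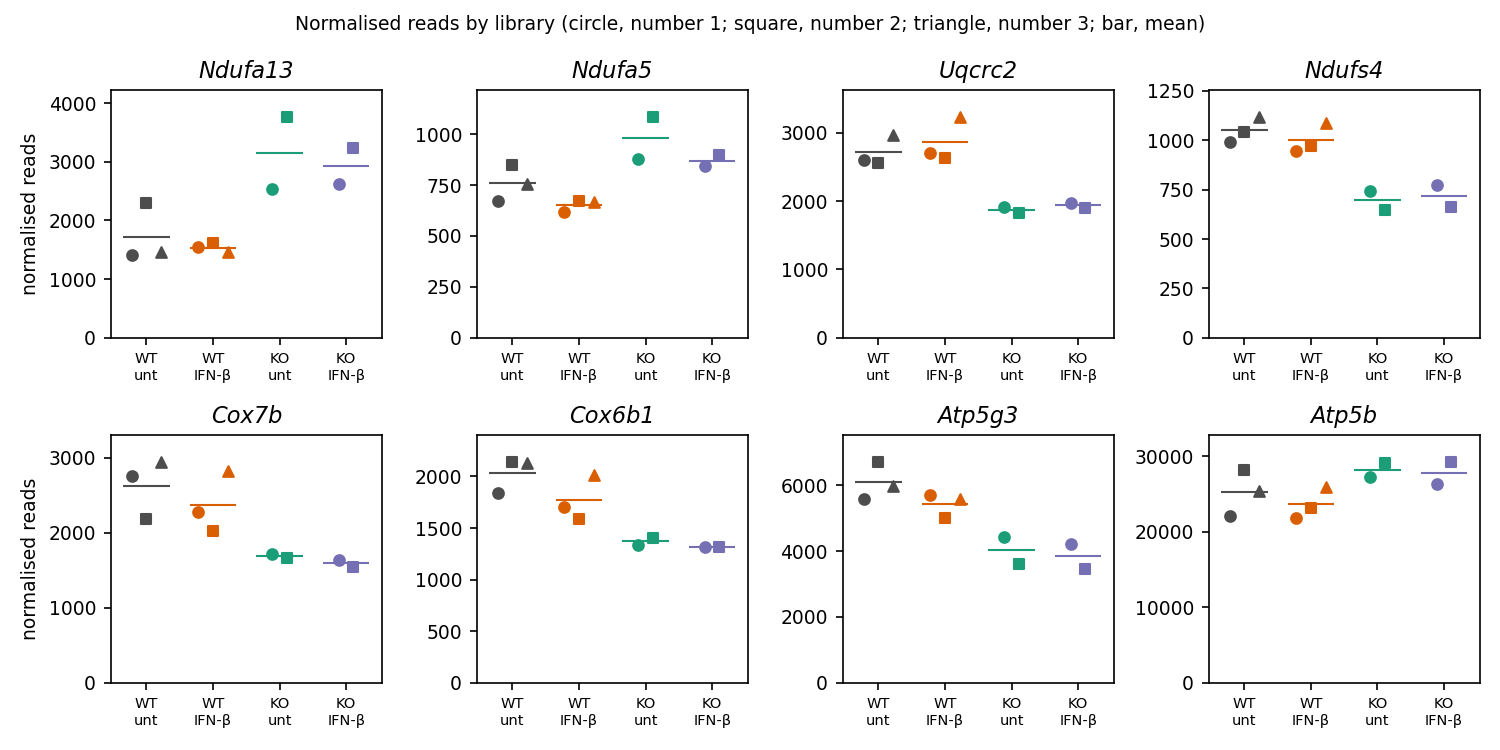
Normalised reads (vertical axis, from 0) of 8 subunit genes in each of the 10 libraries, by group (horizontal axis); circles, squares and triangles are replicate numbers 1, 2 and 3, and bars are group means. Within each treatment, KO-labelled libraries lie above every WT-labelled library for Ndufa13 and Ndufa5 and below every one for Uqcrc2, Ndufs4, Cox7b, Cox6b1 and Atp5g3, and for Atp5b the untreated groups overlap.

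The blocked intervals of all 75 tested members, called ones included, give the range of the differences. Untreated, 38 of the 75 intervals lay within 0.5 either way and 70 within 1, and with IFN-β 36 and 71 did. The median over all 75 members was -0.11 untreated and -0.01 with IFN-β with the block, against 0.00 for all tested genes in both. The untreated median was 0.04 without untreated WT-labelled library 2. Within number, it was 0.01 for number 1 and -0.22 for number 2 untreated, and -0.01 and 0.02 with IFN-β. The direction of the untreated median thus depended on that library.

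The members were also compared between replicate numbers. Between number 2 and number 1, with the groups in the fit, 15 members were higher and 1 (Ndufb6) lower, against 25.3% and 23.3% of all tested genes (48.6% in all). The members thus had a higher share near the background and a lower share under it. Without untreated KO-labelled library 1 the count fell from 16 to 8, without library 2 of that group also to 8, and without untreated WT-labelled library 1 to 10. Sdha was higher by 0.38 ± 0.06 on the log2 scale (limma adjusted p = 0.00192) and Cox7a2l, which takes part in supercomplexes, by 0.53 ± 0.11 (adjusted p = 0.00506). Atp5a1 and Uqcrc1 were also higher in number 2, by 0.34 each. What a replicate number stands for is not given in the sources used here. Of 16 tested regulators of mitochondrial biogenesis, 10 were lower and 1 (Ppargc1a, a coactivator) higher in number 2, the latter by 1.89 ± 0.37 (limma adjusted p = 0.00395). Of 20 tested import genes, 11 were lower and 2 higher.

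Genes around the respiratory chain were read from 13 companion lists. Assembly factors insert cofactors and join the subunits. Cox15 and Cox18, which act in haem A synthesis and in membrane insertion of a complex IV core subunit, rose with IFN-β in both labelled genotypes with the block, and they were the only 2 of 22 tested complex IV assembly factors to do so. In that fit, 4.68% of all tested genes rose in WT-labelled and 3.37% in KO-labelled cells. Cox18 was read at 486, 641 and 420.1 untreated and at 849.7, 832 and 712 with IFN-β in WT-labelled libraries, and at 567 and 528 against 1053 and 1097 in KO-labelled ones. Every treated library was above every untreated one. Its blocked difference was 0.65 ± 0.12 and 0.97 ± 0.14 (limma adjusted p = 0.0151 and 0.00577), and without the block the adjusted p was 0.156 and 0.0667. Cox15 was at 758, 694 and 1059 untreated and at 1213, 1318 and 1518 with IFN-β in WT-labelled libraries, and it differed by 0.71 ± 0.11 and 0.74 ± 0.13 (adjusted p = 0.00517 and 0.0162). Without the block its adjusted p was 0.121 and 0.316. Of the other assembly factor lists, with 15, 4, 6 and 5 tested genes for complexes I, II and III and ATP synthase, 0 genes passed with IFN-β in either fit.

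Between the cultures, with no block, Cox16 was the 1 of 22 complex IV assembly factors that passed, where 6.23% of all tested genes did untreated and 6.55% with IFN-β. It was at 277, 285 and 290.1 in untreated WT-labelled and at 146 and 184 in KO-labelled libraries, and differed by -0.79 ± 0.19 untreated and -0.81 ± 0.19 with IFN-β (limma adjusted p = 0.0434 and 0.0392). Untreated with the block, 1 of 15 assembly factors was higher and 1 lower for complex I. For ATP synthase, 1 of 5 was higher and 1 lower. For complex IV 2 of 22 were lower, and for complexes II and III 0 of 4 and 0 of 6 passed. Of all tested genes, 13.5% were higher and 13.1% lower in that fit.

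Ppargc1b, a transcriptional coactivator of mitochondrial biogenesis, showed the widest gap in these lists. It was read at 54.9, 64.9 and 60.9 normalised reads in untreated WT-labelled and at 4.19 and 3.77 in KO-labelled libraries, and at 47.4, 55.0 and 47.2 against 3.17 and 3.65 with IFN-β. The KO-labelled values lay near the floor of 3 reads (2.73 to 3.29 normalised reads), so the size of the difference is uncertain. The log2 difference was -3.62 ± 0.33 untreated and -3.53 ± 0.33 with IFN-β (limma adjusted p = 0.000404 and 0.000425). With no block, 1 of 16 tested regulators passed in each treatment, where 6.23% and 6.55% of all tested genes did. Polg, the mitochondrial DNA polymerase, passed with the block at -0.70 and -0.78, and 3 of 16 regulators were then lower and 0 higher in each treatment. Of all tested genes, 13.1% and 13.3% were lower and 13.5% and 12.7% higher in that fit.

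In glycolysis, 3 of 17 tested genes were lower in KO-labelled cells untreated and 4 with IFN-β with no block, and 0 were higher, where 3.23% and 3.64% of all tested genes were lower. Pfkp, an isoform of the enzyme at the committed step, was at 568, 694 and 726 against 351 and 241 untreated, a log2 difference of -1.18 ± 0.22 (limma adjusted p = 0.0163). Pgk1, the first ATP-yielding step, differed by -0.93 ± 0.17 (adjusted p = 0.0132). In the citric acid cycle, 0 of 14 genes passed with no block, and with it 6 were lower untreated and 4 with IFN-β, where 13.1% and 13.3% of all tested genes were lower. Dlst, a subunit of the oxoglutarate dehydrogenase complex, was lower by -0.64 and -0.56, and mitochondrial Idh2 by -0.51 and -0.53.

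The remaining lists had few calls with no block. Untreated and with IFN-β, the mitochondrial ribosome had 1 lower and 2 higher of 75, the cytosolic ribosome 2 and 1 of 76 called in either direction, the proteasome 1 and 0 of 34, electron carriers and ubiquinone synthesis 0 and 1 of 17, and import 0 and 0 of 20. With the block, the calls untreated were 12 of 75 for the mitochondrial ribosome, 16 of 76 for the cytosolic ribosome, 7 of 34 for the proteasome, 5 of 17 for electron carriers and 4 of 20 for import. The share for electron carriers, 29.4%, was near the 26.6% of all tested genes, and the others were below it.

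Some promoters of the members hold motifs that the choice by symbol did not use. Of the 83 members, 68 matched a RefSeq promoter (GRCm38.p6, 250 bases before to 50 after the start), and 3 motifs were searched on both strands. The motif of NRF1, a nuclear respiratory factor, was in 25.0% of member promoters against 5.19% of 27025 genes. CCGGAAG, the core of the ETS motif bound by GABPA, was in 22.1% against 9.93%, and AAGATGGCG, the YY1 motif, in 11.8% against 1.64%. At least 1 motif was in 34 of 68 (50%) against 15.1%. The 27025 genes were not limited to those tested here, and no other gene list was compared. By complex, the NRF1 motif was in 6 of 16 ATP synthase, 7 of 31 complex I, 2 of 3 complex II, 1 of 5 complex III and 1 of 13 complex IV promoters. In the same order, CCGGAAG was in 5, 3, 2, 2 and 3 of them, and AAGATGGCG in 3, 5, 0, 0 and 0. For CCGGAAG the complex I share, 9.68%, was near that of all genes. The promoter of Cox6a1 shows the arrangement with 2 NRF1 matches, which start 162 and 117 bases before the start site and are in capitals. The 227 bases printed are chr5:115348982-115349208 on the minus strand. They are the promoter cut to the bases before both the RefSeq and the GENCODE start.
Cox6a1: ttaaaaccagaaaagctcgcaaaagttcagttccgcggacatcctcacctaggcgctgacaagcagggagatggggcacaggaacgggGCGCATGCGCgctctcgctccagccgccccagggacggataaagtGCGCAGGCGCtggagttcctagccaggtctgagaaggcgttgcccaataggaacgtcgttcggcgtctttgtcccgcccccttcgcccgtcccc

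Cox6a1 itself was read at 2663, 3769.5 and 2757 normalised reads in untreated WT-labelled and at 2887 and 3392 in untreated KO-labelled libraries, with overlapping groups. Among members called between the cultures with the block that matched a promoter, a motif was in 2 of 3 higher and 7 of 10 lower ones untreated, and in 2 of 5 higher and 3 of 5 lower ones with IFN-β, so motif-bearing promoters stood on both sides.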

How the data were processed

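Total RNA was sequenced with a stranded library kit, per the labels' protocols. The submitters' processing notes name cutadapt 1.13, STAR 2.5.2a, the mm10 genome, HTSeq and DESeq2. Filters, annotation and whether counting used strand are not given in the sources used here. The deposited signal values are gene reads divided by a size factor per library, as the steps between low values show, and whole reads were recovered for 100% of values (tolerance 0.001).

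The main test was limma 3.58.1 (trend) in R 4.3.3 on log2(normalised reads + 1), with 4 group means over 10 libraries and two-sided Benjamini-Hochberg adjustment over 12313 genes that passed edgeR's filterByExpr (minimum count 10). A fold change on this scale understates the change of low genes. Alternatives used edgeR 4.0.16 and DESeq2 1.42.0 on the recovered reads, other scaling, pseudocounts and filters, a replicate block, and each library left out. The code was tested on simulated data. Libraries of the same replicate number deviated together (r from 0.48 to 0.871 over all genes, and from -0.871 to 0.318 for different numbers; the limit was 0.1). The pairing rests on these data, since the labels do not explain the numbers, and the blocked value is given where it changes a call. Reads per kb used 1 GENCODE M21 transcript per gene.

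Named genes were, per comparison, up to 8 passing members in each direction, fixed core members and isoforms, up to 2 passing genes per companion list, and Slfn2 and Isg15. Ndufa8, Atp5c1, Ndufa1, Ndufa11, Ndufb6 and the members with copies were named after their values were seen. The members, the gene lists and the rule were chosen with earlier results of these data known. Counting intervals cover counting error only. Results of 1 further called member are not reported here.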

Additional observations from a re-analysis of the deposited data

How the results depend on the processing

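No direction reversed among 64 named results recomputed under 33 settings (1648 values, of which 86 lost and 354 gained a call). The median over members between the cultures untreated did change sign, as given below. Both IFN-β comparisons and the interaction kept 0 called members under every alternative run. The counts between the cultures moved, and the cause was not tested. Untreated (0 members without the block), the count was 9 by DESeq2, 2 with TMM scaling, 1 with a pseudocount of 0.5, 1 with a pseudocount of 8, 16 with the replicate block, 15 by edgeR with the replicate block and 8 with numbers 1 and 2 only and the block. Leaving out 1 library gave 0 to 2 without the block and 1 to 18 with it. With the block it was 4 and 1 without untreated KO-labelled library 1 or 2, 8 and 9 without treated KO-labelled library 1 or 2, 12, 18 and 8 without untreated WT-labelled library 1, 2 or 3, and 8, 16 and 8 without treated WT-labelled library 1, 2 or 3. With IFN-β (1 member), it was 6 by DESeq2, 0 by edgeR, 0 with no low-count filter, 14 with the replicate block, 14 by edgeR with the replicate block and 5 with numbers 1 and 2 only and the block. Leaving out 1 library gave 0 to 2 without the block and 1 to 23 with it: 7 and 7 without untreated KO-labelled library 1 or 2, 10, 23 and 5 without untreated WT-labelled library 1, 2 or 3, and 3, 8 and 5 without treated WT-labelled library 1, 2 or 3. Without untreated WT-labelled library 2 and with the block, the median over members was -0.0294 for IFN-β in WT-labelled cells and 0.0443 between the cultures untreated. Over the libraries left out, with and without the block, the first ran from -0.24 to -0.03 and the second from -0.22 to 0.04. The count between replicate numbers (16) was 8 without untreated KO-labelled library 1, 8 without library 2 of that group and 10 without untreated WT-labelled library 1, and ran from 8 to 20 over the libraries left out. Leaving out a KO-labelled library leaves 1 in its group, which is then assumed to vary like the others. Members with few reads, such as Cox6a2 and Atp5l, have the widest intervals.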
